A study of Mus musculus with 2 samples.

Results

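The enzymes of the methionine cycle and of folate metabolism were examined through 9 genes, Ahcy, Ahcyl1, Ahcyl2, Mat2b, Mtrr, Shmt1, Shmt2, Mthfd1 and Mthfd2, out of 12393 genes that had a probe set of their own on the array. The genes were taken for their place in the pathway, with earlier results of these data known. Every probe set annotated to them was used, 22 in all. Tissue came from mouse uterus on day 8 of pregnancy, dissected between the implantation sites, from females 4 months old of C57Bl/6J X OLA129 genetic background. The control sample and the sample labelled Cbs null, the latter from mice homozygous for Cbs deficiency, were each hybridised to 1 array, 2 arrays in all. The labels used here give neither the part of Cbs that was altered, nor the genotype of the control beyond that word, nor whether a sample was 1 animal or a pool. The homozygous females lack Cbs throughout the body, so their uterus cannot be separated from the state of the whole animal. With 1 array per group no difference below has a replicate check, and no test was possible.

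The methionine cycle makes S-adenosylmethionine, the methyl donor for DNA, RNA, protein and lipid methylation, and leaves S-adenosylhomocysteine once the methyl group is passed on. Ahcy splits that product into adenosine and homocysteine, which either leaves the cycle through Cbs or takes a methyl group from folate to become methionine again. The folate enzymes supply that methyl group from serine and also feed purine and thymidylate synthesis, with parallel sets of reactions in the cytosol and in mitochondria. The comparison therefore asks whether the genes that form, use and remethylate homocysteine are expressed at other levels in the uterus when its exit through Cbs is missing.

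No gene of the 9 was 2-fold apart between the samples, and 1, Mtrr, was just over 1.5-fold apart. Among all 8407 measured genes, 1.51% were at least 2-fold apart in either direction, so a count of 0 in 9 is near the background. The deposited signals are linear, and both arrays had been brought to one overall scale, with medians of 74.55 (control) and 75.6 (Cbs null). A signal under the floor of 43.2 units, the 40th percentile of both arrays together, was raised to it before a ratio was taken, and a gene was counted as measured when it exceeded the floor on at least 1 array. Where a gene had several probe sets, the one with the highest mean log2 signal stood for the gene. All 9 genes were above the floor in both samples, so none was counted through 1 sample alone. At the gene level 6 were higher and 3 lower in the Cbs null sample, where 53.3% of all measured genes were higher and 46.5% lower, with a median log2 ratio of 0.10, against 0.02 over all measured genes. The technical SD of a log2 ratio, taken from how far probe sets of 1 gene differed in 2757 genes, was 0.22. It holds the disagreement between probe sets of a gene. Errors that those probe sets share on an array, and variation between animals, are not in it. Of the 9 gene-level ratios, 6 lay within 1 technical SD of 0, 2 between 1 and 2, and 1, that of Mtrr, beyond 2. Of all genes that exceeded the floor on both arrays, 61.9% lay within 1 technical SD and 12.7% beyond 2.

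**Figure D1:**
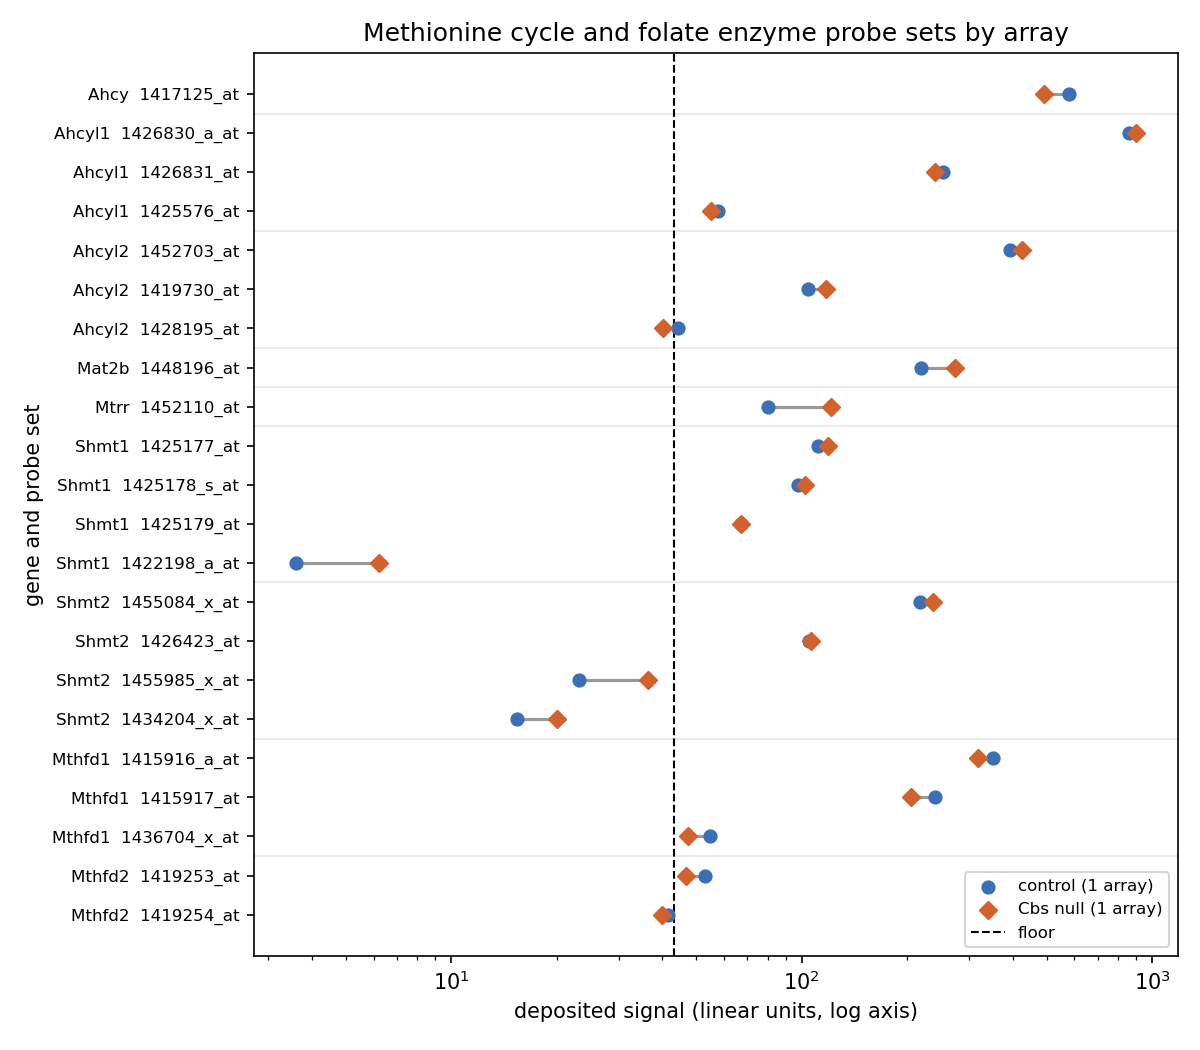
Deposited signal of the 22 probe sets of the 9 genes (log axis) in the control sample (circles) and the Cbs null sample (diamonds), 1 array each, with the floor of 43.2 units as a dashed line. The symbols of most probe sets nearly coincide, Mtrr has the widest gap among those to the right of the floor (80.3 and 121.5), and levels of different probe sets cannot be compared with each other.

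Of the 22 probe sets, 17 were above the floor on both arrays, 1 on the control array only, and 4 on neither. Among the 17, 9 were higher and 8 lower in the Cbs null sample, and 13 differed by less than 1 technical SD. The 3 genes furthest from 0, Mtrr, Mat2b and Ahcy, had a single probe set each, so no second measurement of their ratio exists on these arrays. For the genes with at least 2 probe sets above the floor on both arrays, Ahcyl1, Ahcyl2, Shmt1, Shmt2 and Mthfd1, the ratios of 1 gene spanned at most 0.14 on the log2 scale.

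Ahcy, the hydrolase that forms homocysteine from S-adenosylhomocysteine, read 578.6 in control and 489.9 in Cbs null uterus. This was 1.18-fold lower, a log2 ratio of -0.24 and slightly more than 1 technical SD. This was the lowest ratio of the 9, with Mthfd2 next at -0.18. The Ahcy ratio was less far from 0 than the SD of 0.32 over all genes measured in both samples. The stretch before its start site is shown as the promoter of the step that makes homocysteine, together with the far shorter gap before Mtrr, the member that differed most. Both come from the RefSeq promoter table (GRCm38.p6), which listed all 9 genes and reads 250 bases before each start. They are written 5′ to 3′ on the minus strand, on which both genes lie, and capitals mark matches to the motifs named after them.
Ahcy, 250 bases before the start, chr2:155074498-155074747: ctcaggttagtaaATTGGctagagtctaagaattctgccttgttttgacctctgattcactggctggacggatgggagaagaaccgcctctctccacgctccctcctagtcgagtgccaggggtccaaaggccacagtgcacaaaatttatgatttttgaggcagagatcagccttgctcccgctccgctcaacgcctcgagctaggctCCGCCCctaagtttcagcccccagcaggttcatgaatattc
Mtrr, 40 bases between its outermost start and that of Fastkd3, chr13:68582170-68582209: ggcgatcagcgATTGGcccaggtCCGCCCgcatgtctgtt

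Mtrr and Fastkd3, a gene for a mitochondrial RNA-binding protein, run in opposite directions from starts with only 40 bases between them, and both capitalised matches of that gap, a CCAAT box (CCAAT, here as ATTGG) and a GC box (GGGCGG, here as CCGCCC), lie between them. Fastkd3 had 0 probe sets on this array, so whether it moved with Mtrr was not analysed here. Over the 250 bases before each start, both strands read, a GC box was found for 7 of the 9 genes. It was found in 10 of their 14 windows and in 32.7% of all 32851 promoter windows of that length. A CCAAT box was found for 6 of the 9, including Ahcy, Mat2b and Mthfd1, in 7 of the 14 windows, and in 33.8% of all windows. Several of the 9 genes have more than 1 window, 14 in all, which gives a gene more chances of a match than a single window has. The E-box CACGTG (6.02% of all windows) and the ATF4 element TGATGCAA (0.791%) were found for 0 of the 9. The cAMP response element TGACGTCA was found for Ahcyl1 (1.55% of all windows) and the TATA box TATAAA for Ahcyl1 and Ahcyl2 (12.4%). In the printed stretches no motif overlaps another, and these matches describe the letters only.

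Ahcyl1 and Ahcyl2 resemble Ahcy in sequence but are known as partners of inositol trisphosphate receptors and ion transporters rather than as homocysteine-forming enzymes. The brightest Ahcyl1 probe set read 859.6 in control and 896.3 in Cbs null uterus, a log2 ratio of 0.06. The other Ahcyl1 probe sets read 253.6 and 239.3 (log2 ratio -0.08) and 57.7 and 55.2 (-0.06). Ahcyl1 therefore had no common direction among its probe sets, and all 3 differed by less than 1 technical SD. Ahcyl2 read 391.6 and 426.4 in its brightest probe set (log2 ratio 0.12) and 104.4 and 117.6 in another (0.17). The remaining Ahcyl2 probe set read 44.4 and 40.1, just above and just below the floor. The hydrolase and its relatives together thus held 1 gene that was lower beyond 1 technical SD and 2 that were within it.

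Mat2b encodes the regulatory subunit of methionine adenosyltransferase, the enzyme that makes S-adenosylmethionine outside the liver. It read 219.2 in control and 272.9 in Cbs null uterus, 1.24-fold higher, a log2 ratio of 0.32. That was the second highest ratio of the 9, between 1 and 2 technical SDs from 0. The catalytic partner gene Mat2a had no probe set of its own in the annotation used here. Mat1a, the catalytic subunit gene of liver, read 1.9 and 4.2, below the floor in both samples.

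Mtrr encodes methionine synthase reductase, which returns the cobalamin cofactor of methionine synthase to its active state and so keeps remethylation of homocysteine running. Its probe set read 80.3 in control and 121.5 in Cbs null uterus, 1.51-fold higher, a log2 ratio of 0.60. For genes whose second brightest probe set was under 4 times the floor, the technical SD was 0.24. That value pools the weak probe set with a brighter one, so it is not the error of weak probe sets alone. Among all measured genes 3.62% were at least 1.5-fold higher, and among 2151 genes that exceeded the floor on both arrays and had a mean signal within 1.5-fold of that of Mtrr, 4.83% were at least as far higher as Mtrr. The value stood at the edge of the 1.5-fold class, and subtracting the median ratio of all genes (0.02) left 0 of the 9 genes in it. With the floor at the 60th percentile of signal, 120.3 units, the control reading of Mtrr was raised to the floor and the Cbs null reading lay just above it, so the log2 ratio of 0.014 is only a lower bound. Mtr, methionine synthase itself, had no probe set of its own in the annotation used here.

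**Figure D2:**
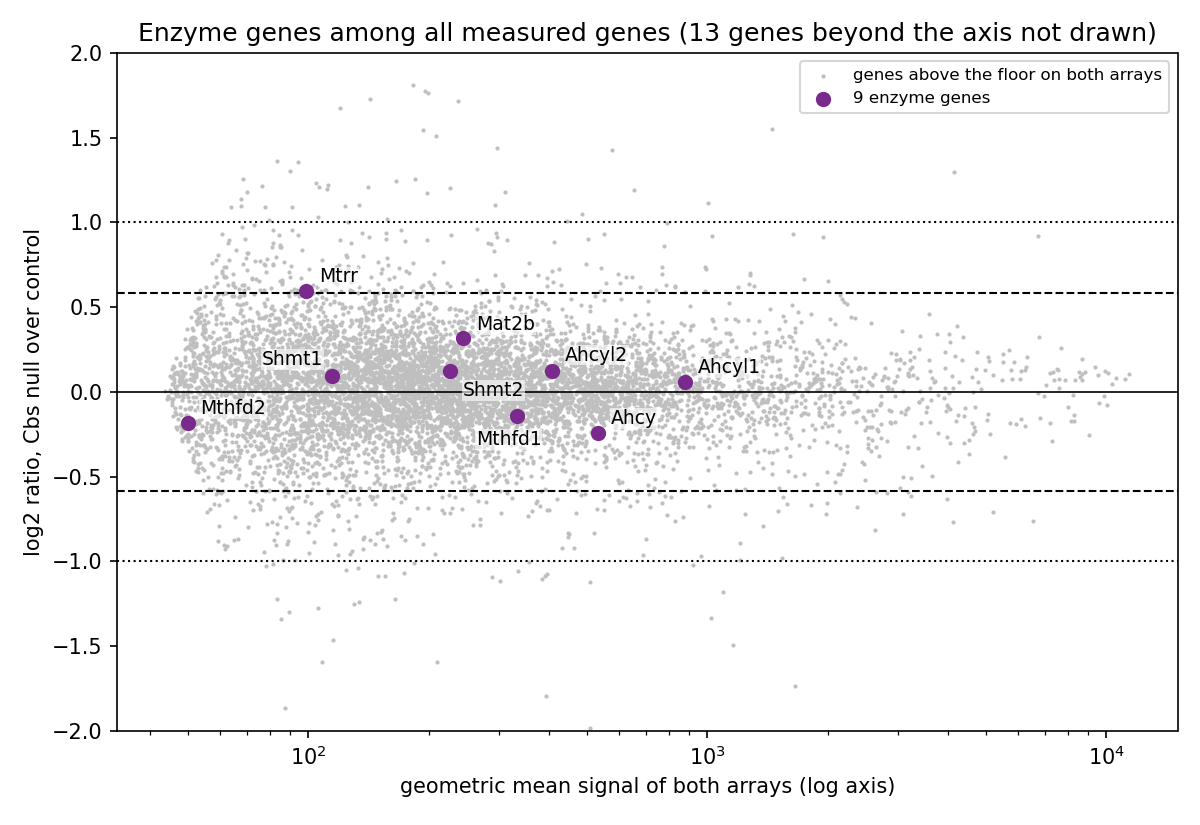
Log2 ratio of Cbs null over control against the geometric mean signal of both arrays (log axis) for genes above the floor on both arrays (grey), with the 9 enzyme genes in purple. Dashed lines mark 1.5-fold and dotted lines 2-fold. Mtrr lies on the upper 1.5-fold line at 0.60, the other 8 lie between -0.24 (Ahcy) and 0.32 (Mat2b), and 13 grey genes beyond the axis are not drawn.

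Serine hydroxymethyltransferase passes a carbon from serine to tetrahydrofolate, in the cytosol as Shmt1 and in mitochondria as Shmt2. Shmt1 read 111.0 in control and 118.6 in Cbs null uterus (log2 ratio 0.10), with its other measured probe sets at 97.3 and 102.0 and at 67.2 and 67.1. Another probe set, at 3.6 and 6.2, was below the floor. Shmt2 read 217.0 and 236.1 (log2 ratio 0.12) and 104.6 and 106.0 (0.02), and 2 further probe sets were below the floor in both samples. All measured probe sets of both genes lay within 1 technical SD of 0. The brightest Shmt2 probe set has the _x_at suffix, which marks probes that may bind other transcripts, and without such probe sets Shmt2 stood at 0.02.

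Mthfd1 is the cytosolic enzyme that interconverts the formyl, methenyl and methylene forms of tetrahydrofolate, and Mthfd2 is a mitochondrial enzyme of the same route that is best known from embryonic and dividing cells. Mthfd1 read 350.8 in control and 318.0 in Cbs null uterus, 1.10-fold lower. Its other probe sets read 240.2 and 205.4 and 54.7 and 47.5, so all 3 were lower in the Cbs null sample, with log2 ratios from -0.23 to -0.14. Mthfd2 read 53.0 and 46.7, a log2 ratio of -0.18 close to the floor, and its second probe set, at 41.4 and 39.8, was below it. In the cytosolic pair Shmt1 was slightly higher and Mthfd1 slightly lower, and the mitochondrial pair Shmt2 and Mthfd2 had the same signs. All of these gene-level ratios lay within 1 technical SD of 0, so no pattern can be read from their signs. The 8 genes other than Mtrr spanned log2 ratios from -0.24 to 0.32, a range that held 72.8% of the 7942 genes with both signals above the floor.

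The other genes of the pathway came from a list of 54, of which 41 had a probe set of their own and 32 were measured. Among the latter, 18 were higher and 14 lower in the Cbs null sample, with a median log2 ratio of 0.02, equal at 2 decimals to that of all measured genes. No gene of the list was 2-fold apart, although the values of 3 genes above the floor on 1 array only are bounds. The 1.5-fold class held 2 genes, both lower, where 3.39% of all measured genes were at least 1.5-fold lower. One was Cbs, the gene of the genotype, at 79.8 in control uterus and 42.6, just under the floor, in Cbs null uterus, lower by at least 1.85-fold. Neither reading is far from the floor, and where the probe set lies relative to the mutation is not known. A second Cbs probe set, at 39.8 and 25.1, was below the floor in both samples. The other gene of the class was Ggh, a lysosomal hydrolase that shortens folate polyglutamates, with 698.0 and 457.2, 1.53-fold lower.

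Beside Cbs, Cth, the next enzyme of transsulfuration, read 120.6 and 122.4. Adk, the kinase that removes the adenosine released by Ahcy, read 1023.9 and 884.1, a log2 ratio of -0.21 close to that of Ahcy. Gnmt, a glycine methyltransferase abundant in liver, was below the floor in both samples. The same held for Bhmt and Bhmt2, which remethylate homocysteine from methyl donors other than folate, and for Dmgdh. Chdh, which starts the oxidation of choline to betaine, read 536.2 and 710.5, 1.33-fold higher. Its probe set has the _s_at suffix, and Chdh had no value once _s_at and _x_at probe sets were left out. Methionine salvage recovers methionine from the by-product of polyamine synthesis. Of its measured genes together with the polyamine gene Srm (log2 ratio 0.08), 4 of 6 were higher, where 53.3% of all measured genes were higher. Adi1 led them at 306.8 and 427.8, 1.39-fold higher. Both measured Adi1 probe sets have the _x_at suffix, and its remaining one was below the floor. Mtap, counted as higher at a log2 ratio of 0.03, had probe sets of both signs.

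Folate carriers and retention genes varied in sign. The folate receptor gene Folr2, which is known from macrophages, read 45.8 and 63.1, 1.38-fold higher and near the floor, whereas Folr1 was below the floor in both samples. The reduced folate carrier gene Slc19a1 read 221.9 and 256.1 in its brightest probe set and 121.7 and 115.7 in another. Fpgs, the synthase that adds the glutamates Ggh removes, read 131.1 and 140.1. Of 7 cobalamin genes 3 were higher and 4 lower. The lower ones were Mmachc at 96.9 and 71.8 (1.35-fold), Mmaa, Mmadhc, which was within 1 technical SD of 0, and Mmab, which was under the floor in Cbs null uterus and so was counted through its control value alone. The uptake and lysosomal export genes Tcn2, Cd320 and Lmbrd1 had log2 ratios from 0.00 to 0.28. Aldh1l1, which oxidises formyl tetrahydrofolate, read 73.0 and 55.0, 1.33-fold lower, and Gart, of purine synthesis, 180.3 and 186.3. The other Gart probe sets were lower, at 98.4 and 80.6 and, under the floor in Cbs null uterus, at 51.2 and 35.3. Tyms, thymidylate synthase, was below the floor in its own probe sets. Serine synthesis genes Phgdh and Psat1 each stood at 0.07 in their brightest probe sets, and Psph at -0.17. The other Phgdh probe sets ran from 0.01 to 0.40, and the other Psat1 probe set stood at 0.23. In the glycine cleavage system, Gcsh and Dld stood at -0.11 and -0.23, and Gldc was below the floor.

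**Figure D3:**
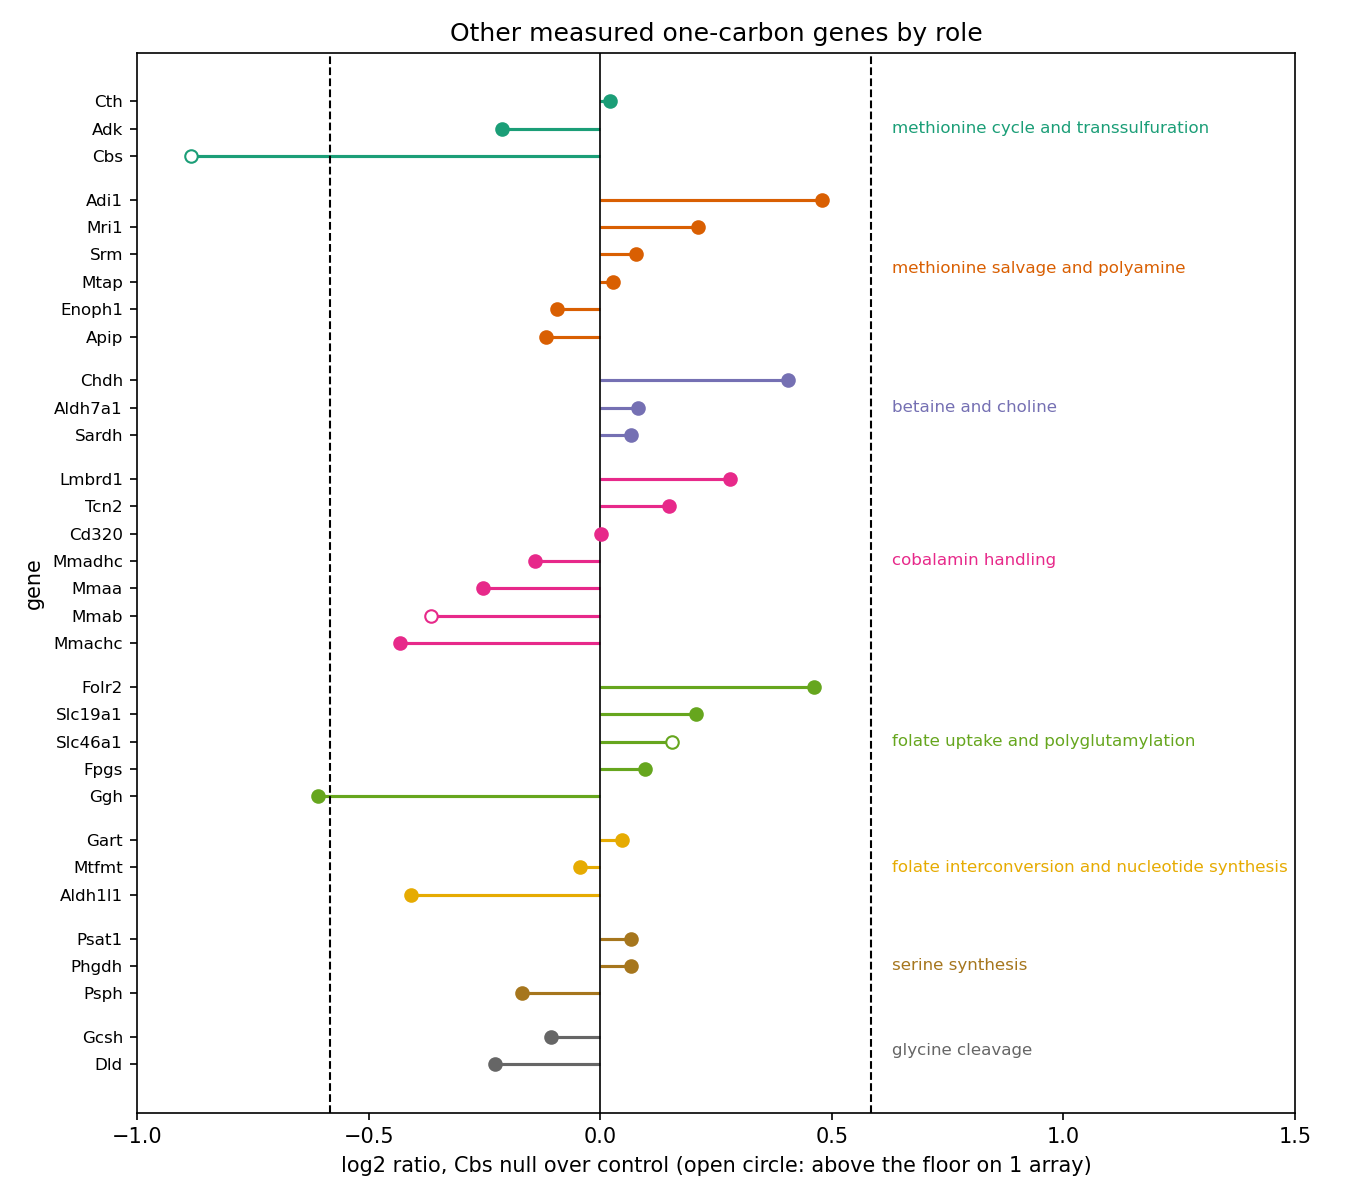
Log2 ratio of Cbs null over control for the 32 other measured one-carbon genes, grouped by role, with dashed lines at 1.5-fold and open circles for genes above the floor on 1 array only. Cbs and Ggh (-0.61) pass the lower line, no gene passes the upper line, and Adi1 (0.48) comes nearest to it.

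Marker genes of several cell types differed in signal between the samples, with list medians of 0.54 for epithelium, 0.50 for macrophages and dendritic cells and -0.32 for smooth muscle. The uterine regulators Hoxa10 and Hoxa11 were bright in both samples (1187.9 and 1358.8 for Hoxa10), whereas Esr1 was below the floor in both and Pgr was above it in the control sample only. All 7 epithelial markers were higher in the Cbs null sample, with summed signals of 3525.4 and 5146.2, Cdh1 at 455.9 and 664.5 and Krt18 at 999.3 and 1625.8. All 8 macrophage and dendritic markers were higher, with sums of 4157.6 and 5784.0, Csf1r at 669.1 and 1025.6 and Ptprc at 347.7 and 389.4. All 7 smooth muscle markers were lower, with sums of 32503.4 and 26064.9, Des at 2994.0 and 1868.9 and Actg2 at 5387.5 and 3165.5. Des and Actg2 differed most, whereas Acta2 (9826.1 and 9373.2) and Tagln (6348.2 and 5555.8) lay within 1 technical SD of 0. Of 7 decidual stroma markers, Fst, Tdo2 and Prl8a2 were at least 2-fold lower, and the other 4, Bmp2, Hand2, Hoxa10 and Hoxa11, had log2 ratios from -0.01 to 0.19. The list median was -0.01, so the lower sum (4623.6 and 2965.5) was carried by those 3 genes. The 4 measured natural killer cell markers were lower (sums of 496.7 and 254.5 over the 5 on the array). The lower sum was carried by Gzma (113.2 and 39.7) and Gzmb (177.8 and 12.6), both measured in the control sample only. Klrd1 read 133.3 and 123.3, and Prf1 50.6 and 43.5, near the floor. Endothelial markers were mixed, with Pecam1 at 234.0 and 253.8, Kdr at 293.4 and 233.8 and sums of 1420.6 and 1436.2. Of 7 proliferation markers 4 were higher, such as Mki67 at 142.1 and 154.1, and 3 lower, Rrm2 at 819.4 and 164.0, Ccna2 at 95.5 and 59.8 and Top2a at 173.9 and 157.8. Their median log2 ratio was 0.01, while the sums, 2346.5 and 1681.7, were carried by Rrm2. Both adipocyte markers were lower, Adipoq at 2494.0 and 2002.3 and Fabp4 at 5129.6 and 3970.7. Of the 2 measured erythroid markers, Alas2 was higher and Hbb-b2 lower. The epithelial and macrophage sums were higher, as were 6 of the 9 enzyme genes, and the smooth muscle and adipocyte sums were lower, as were 3. Of all measured genes, 53.3% were higher and 46.5% lower, so a shared sign does not tie a gene to a cell type. The decidual stroma and proliferation lists held markers of both signs. The part of these marker differences in the enzyme ratios was not tested. In whole tissue, fewer cells of a type and less RNA per cell cannot be told apart. All 3 trophoblast markers on the array were below the floor in both samples. Of 4 hepatocyte markers on the array, Alb read 45.1 and 63.6, Ttr was above the floor in the Cbs null sample only, and Apoa1 and Fabp1 were below it.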

How the data were processed

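Biotin-labelled cRNA, made from total RNA, was hybridised to Affymetrix arrays, per the labels' protocols. The authors deposited linear intensities, 1 for each probe set on each array. GCOS 1.4 is named in the submitters' processing notes, which leave the summarisation and scaling target unnamed. The 2% trimmed means were 200.08 (control) and 200.07 (Cbs null), so the values were used as scaled, and every ratio is relative to total signal. Of 22626 probe sets other than 64 array controls, 20380 had 1 gene symbol in the platform annotation, 691 several and 1555 none. Only those with 1 symbol named a gene, and a RefSeq table (GRCm38.p6) matched 20351 of them and changed 0 symbols. Ratios, the floor and the technical SD were computed with Python 3.11.15, pandas 2.3.3 and NumPy 2.4.6, tested on simulated data. The technical SD came from the difference between the 2 brightest probe sets of a gene. Where 1 value lay under the floor, the fold is a lower bound. With 1 array per group no test, SD between animals or p-value exists, and the number of arrays limits the precision.

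The 9 genes, the other gene lists and the tests were chosen with earlier results of these data known, and the grouping of the other genes by role was made after their values were seen. Named were all 9 genes, the direct partners Cbs, Mtr, Mat2a and Tyms, list genes at least 1.5-fold apart or with the 3 highest and 3 lowest ratios, and 8 defining cell markers. The other list genes and markers named were picked by role after their values were seen. The alternatives were median centring, quantile normalization, a floor at the 20th or the 60th percentile, a pseudocount of 16 units without a floor, the mean over probe sets, and leaving out _s_at and _x_at probe sets.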

Additional observations from a re-analysis of the deposited data

How the results depend on the processing

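The groups hold 1 array each, so no replicate could be left out. No paired analysis was possible because each group has 1 sample. The count of enzyme genes at least 2-fold apart was 0 under all 7 alternatives. The count at least 1.5-fold apart, 1 gene (Mtrr), was 0 with median centring, quantile normalization, the floor at the 60th percentile and the pseudocount, and 1 with the other 3. The log2 ratio of Mtrr was 0.0143 with the floor at the 60th percentile, a lower bound there, since its control signal was raised to the floor, and where Shmt1 and Mthfd2 were not measured. The median of the other one-carbon genes was -0.0216 with probe sets averaged. The median of the 9 genes stayed between 0.05 and 0.10. Ahcyl1, at 0.06, was -0.03 with probe sets averaged, and the other 8 genes kept their sign wherever they were measured. Mtrr, Shmt1 and Mthfd2 are weak signals, for which the floor limits what can be seen. Ggh was at least 1.5-fold lower under all 7 alternatives, with log2 ratios from -0.63 to -0.59. Cbs was not measured with the floor at the 60th percentile or without _s_at and _x_at probe sets.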

Other observations

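Probe sets annotated to several genes were left out of the comparison, and 7 of them hold a gene of the pathway. A probe set shared by Phgdh and the predicted gene Gm6756 read 120.8 in control and 169.7 in Cbs null uterus, a log2 ratio of 0.49. The brightest probe set of Phgdh alone read 260.0 and 272.2. Another of Phgdh alone read 177.1 and 232.9, a log2 ratio of 0.40. A probe set shared by Tyms and its pseudogene Tyms-ps read 78.1 and 58.3, 1.34-fold lower, and is the only one for thymidylate synthase above the floor. A probe set shared by Mthfs and Mthfsl, for the enzyme that returns formyl tetrahydrofolate to the pool, read 123.5 and 106.0. The spermine synthase gene Sms and its pseudogene shared probe sets at 143.9 and 169.7 and at 116.7 and 135.8, which gave log2 ratios of 0.24 and 0.22. Another of theirs was below the floor in both samples. A second probe set shared by Phgdh, with Gm8096, read 42.7 and 51.1, next to the floor. These signals cannot be assigned to 1 gene.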
